A study of Glycine max with 8 samples.

Results

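The comparison described here is that of 150 mM NaCl with mock treatment in soybean (Glycine max) seedlings that over-express GmSIN1 (OE). Its libraries were assigned by their genotype and treatment labels and are 4 of the 8 libraries of the series, namely GmSIN1 OE mock libraries 1 and 2 and GmSIN1 OE NaCl libraries 1 and 2. The other 4 are wild-type (WT) libraries of WEI6823, the conventional line, under the same mock or NaCl treatments. All seedlings were 2 weeks old and grown hydroponically, treatment lasted 6 h, and each library was made from root and leaf RNA combined in equal parts. The labels give neither the promoter that drives the transgene, nor the number of transgenic lines or clones, nor the number of plants in a library.

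GmSIN1 belongs to the NAC family of plant transcription factors, many of which are induced by salt, drought or abscisic acid. High external NaCl acts on roots first as an osmotic stress that limits water uptake and later through sodium that accumulates in the tissue. Plants respond with abscisic acid synthesis, reactive oxygen signalling, compatible solutes and sodium transport out of the cytosol. The deposited locus IDs are not paired with gene names in the files or in the reference gene table, so GmSIN1 itself, the genes of these pathways and markers of root and leaf were not analysed here. Loci are therefore described by chromosome, coding length and level, and 4 of them by ID. In mixed-organ RNA, fewer cells of a type and less RNA per cell cannot be told apart, and a change in 1 organ is diluted by the other.

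Total expected counts were 6466660 to 6996308 in the OE libraries and 5980170 to 7199775 over all 8. Between 41003 and 41598 loci had a count in an OE library. Levels are given as CPM, expected counts relative to the TMM-scaled library total, and differences as log2(CPM + 1), which understates the change of low loci. At these depths 3 counts, the limit that a count of 0 allows, correspond to 0.423 to 0.488 CPM in an OE library, and intervals cover counting error only. OE NaCl library 1 stood apart from the other OE libraries, and results that rest on it are given beside those that do not.

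Salt and mock libraries of OE seedlings differed strongly within number 1 and little within number 2. Within number 1, 964 of 19311 loci at 10 CPM or more in the higher library were at least 2-fold lower in NaCl (4.99%) and 330 were at least 2-fold higher (1.71%). Within number 2, the corresponding counts among 19017 loci were 5 lower (0.0263%) and 25 higher (0.131%), and scaled to library totals 2 and 31. The SD of the log2 differences was 0.61 within number 1 and 0.25 within number 2. Each number has 1 library per treatment, so neither set of differences has a replicate check of its own.

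Taken over both numbers, no locus passed adjustment over all loci tested. With the 4 OE libraries, edgeR's quasi-likelihood test passed 0 of 32629 loci at an adjusted p of 0.05 (0.0%), and 27 had an unadjusted p under 0.05. DESeq2 and limma-voom also passed 0, with 22 and 12 loci at an unadjusted p under 0.05. None of these fits includes library number, so differences between numbers count as spread within a treatment. Deviations from the group mean went together between OE libraries of equal number (r = 0.779), so these fits have little power. With a replicate block, the edgeR test passed 0 loci, with 1097 of 32629 at an unadjusted p under 0.05. With all 8 libraries and a block within OE, edgeR passed 0 of 34023 loci, with 3931 at an unadjusted p under 0.05. That last fit shares its spread with the WT libraries. Passing 0 loci is therefore not evidence that salt had no effect. NaCl levels lay above mock levels in both libraries at 1056 loci (4.94%) and below them at 2078 (9.73%) of 21355 loci at 10 CPM or more in any OE library. At 0 of these loci was the gap between the groups 2-fold or more. If libraries were exchangeable, 2 against 2 would separate in one direction or the other with a probability of 0.333. OE libraries of equal number deviated together, so this probability is not a reference for the OE shares. These shares therefore show neither a salt effect nor its absence.

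**Figure D1:**
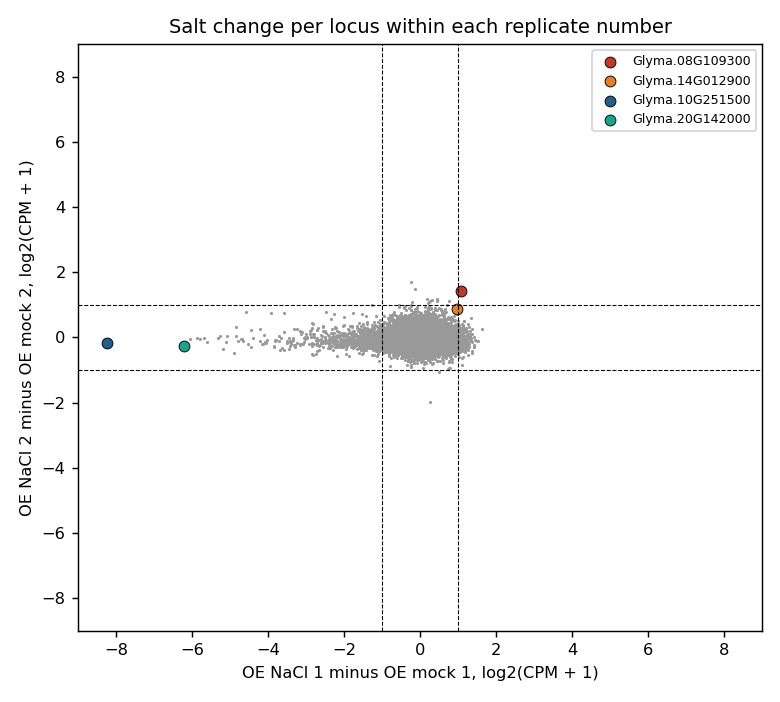
Each point is a locus at 10 CPM or more in both OE pairs, with the NaCl minus mock difference in log2(CPM + 1) within number 1 on the x axis and within number 2 on the y axis. Dashed lines mark 2-fold. Points extend to -8.24 on the x axis while on the y axis nearly all stay within 2-fold, and 1 locus is past 2-fold upward on both.

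Differences between libraries of one OE group were more numerous than those between treatments of equal number. OE mock 2 differed from OE mock 1 by 2-fold or more at 3273 of 20156 loci, 2141 being higher (10.6%) and 1132 lower (5.62%). OE NaCl 2 differed from OE NaCl 1 at 5499 of 20507 loci, 3067 being higher (15.0%) and 2432 lower (11.9%). Both counts exceed the 1294 and 30 loci past 2-fold between treatments within number 1 and number 2.

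The balance of directions between same-treatment libraries turned with scaling. Scaled to library totals, 1562 loci were higher and 1772 lower in OE mock 2, and 2454 higher and 3117 lower in OE NaCl 2. The median difference over all loci moved with it, from 0.06 to -0.15 between the mock libraries and from 0.13 to -0.04 between the NaCl libraries. Within equal numbers these medians were -0.03 and 0.01 for number 1 and -0.05 and 0.03 for number 2, each with TMM first.

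When treatments were compared across numbers, chosen after the data were seen, the counts were of the size of those between same-treatment libraries. OE NaCl 1 was at least 2-fold lower than OE mock 2 at 3306 loci (16.1%) and higher at 2272 (11.1%), or 2325 and 3324 scaled to library totals. With TMM scaling, OE mock 1 lay between OE NaCl 1 and OE mock 2 at 69.1% of the lower loci and 94.8% of the higher ones. This is a description, since OE NaCl 1 and OE mock 2 chose these loci. OE NaCl 2 was at least 2-fold lower than OE mock 1 at 1240 loci (6.16%) and higher at 1966 (9.77%), or 1655 and 1661. The number of loci past 2-fold thus depended strongly on the mock library. For OE NaCl 1 it was 1294 against OE mock 1 and 5578 against OE mock 2. For OE NaCl 2 it was 30 against OE mock 2 and 3206 against OE mock 1.

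**Figure D2:**
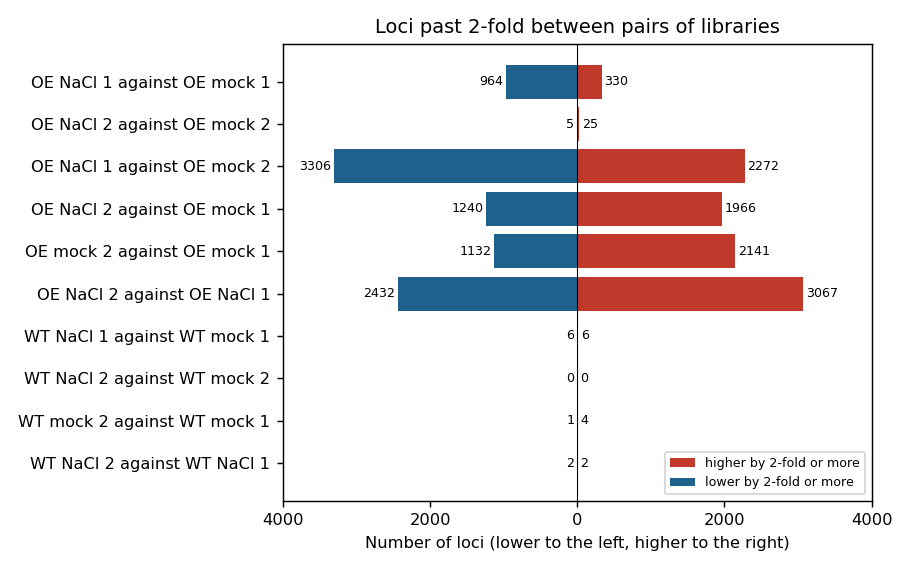
Bars give the number of loci at least 2-fold higher (right, red) or lower (left, blue) in the first-named library of each pair, TMM-scaled, among loci at 10 CPM or more in the higher library. Pairs of OE libraries that cross numbers hold 3206 to 5578 loci past 2-fold, the OE pair of number 1 holds 1294, the OE pair of number 2 holds 30, and WT pairs hold 0 to 12.

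Wild-type seedlings had few loci past 2-fold in either pair. WT NaCl 1 against WT mock 1 had 6 higher and 6 lower loci past 2-fold among 18347 (0.0327% each), and WT NaCl 2 against WT mock 2 had 0 and 0 of 18417 (0.0% each). The SDs of the log2 differences were 0.20 and 0.18, below those of both OE pairs. Between WT libraries of one treatment, 4 loci were higher (0.0217%) and 1 lower (0.00543%) in mock 2 than in mock 1, and 2 were higher and 2 lower (0.0109% each) in NaCl 2 than in NaCl 1. Both WT NaCl libraries lay above both mock libraries at 3592 loci (19.0%) and below them at 3366 (17.8%) of 18946. For exchangeable libraries the probability of either order is 0.333 in all, so these shares do not show a salt effect either. Deviations from the group mean went together between libraries of equal number in OE (r = 0.779 across 21355 loci) and hardly in WT (r = 0.0185).

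Whether the OE difference departs from the WT difference was tested as the interaction over all 8 libraries. edgeR passed 0 of 34023 loci (0.0%), with 231 at an unadjusted p under 0.05. DESeq2 and limma-voom passed 0, with 63 and 192 loci at an unadjusted p under 0.05. Leaving out OE NaCl 2 makes OE NaCl 1 the only library of its group, which then takes its spread from the other libraries. WT and OE libraries vary unequally and share 1 spread in the interaction fit. Without OE NaCl library 2 it passed 57 loci, all with a lower NaCl to mock ratio in OE than in WT (0.162% of 35161). A test of NaCl against mock in OE over the same 7 libraries, added after the data were seen, passed 218 loci (0.62%), 209 of them lower in NaCl.

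At the loci lower in NaCl within number 1, the median level stood apart in OE NaCl 1. It was 36.5 CPM in OE mock 1, 40.1 CPM in OE mock 2 and 39.5 CPM in OE NaCl 2, against 11.1 CPM in OE NaCl 1. In the WT libraries the same 964 loci had medians of 15.3 to 16.0 CPM. The high value of OE mock 1, which also met the 10 CPM minimum, and the low value of OE NaCl 1 chose these loci. Values of the libraries numbered 2 and of WT were not used. The libraries numbered 2 share the genotype of OE mock 1, however, so their place relative to WT is not independent of the choice. OE mock 1 lay within 1.5-fold of OE mock 2 at 547 of the 964 (56.7%, against 68.6% of all loci), so OE mock 1 also departed from OE mock 2 at many of them.

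In the libraries numbered 2, both levels lay above all 4 WT levels at 767 of the 964 loci (79.6%), against 38.0% of all loci measured in number 1. This share is a description, since a high level in OE mock 1, of the same genotype, chose the loci. The place of OE NaCl 1 is a description too, since its low value chose them. It was at least 2-fold below OE mock 2 at 761 (78.9%, against 11.96% of all loci). It lay below all WT libraries at 604 loci (62.7%, against 43.7%), within their range at 136 (14.1%, against 18.1%) and above it at 224 (23.2%, against 38.2%). Within number 2 the difference was under 1.5-fold at 98.3% of the 964, near the 97.3% of all loci, and its median was -0.08 against -0.05.

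The same library led when loci were counted at which 1 library stood at least 2-fold apart from the other 3 OE libraries. OE NaCl 1 was lowest by that margin at 820 of 21355 loci (3.84%) and highest at 168 (0.787%). OE mock 1 was lowest at 169 (0.791%) and highest at 84 (0.393%). OE mock 2 stood alone at 13 low loci (0.0609%) and 0 high ones (0.0%), and OE NaCl 2 at 7 (0.0328%) and 5 (0.0234%).

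**Figure D3:**
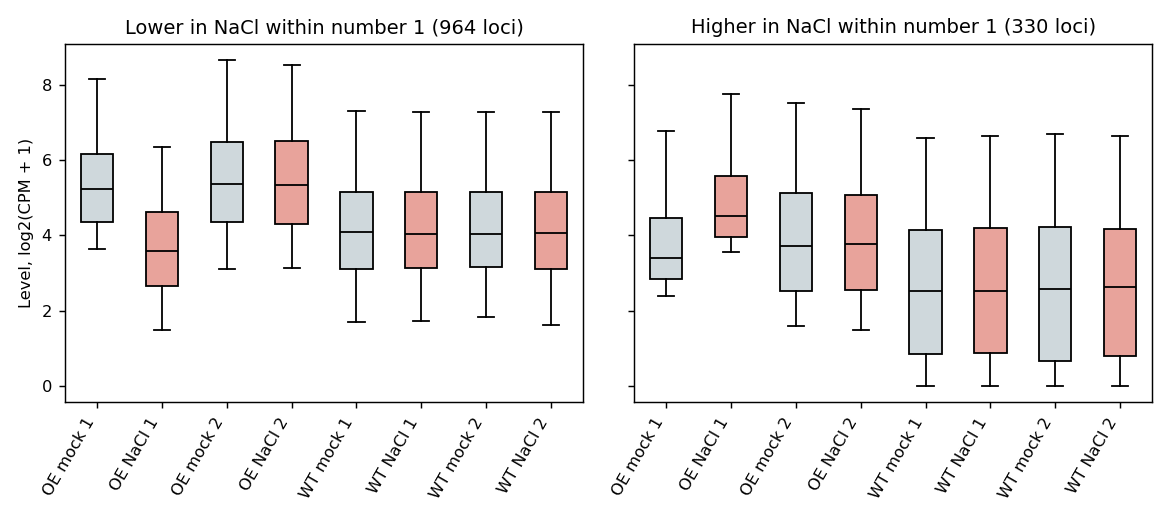
Boxes show the median and quartiles, and whiskers the 5th to 95th percentile, of log2(CPM + 1) in each of the 8 libraries for the 964 loci lower (left) and the 330 loci higher (right) in NaCl by 2-fold within number 1, with mock in grey and NaCl in red. On the left OE NaCl 1 alone among the OE libraries sits low, with a median of 11.1 CPM against 36.5 to 40.1 CPM.

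Lower loci reached far larger differences than higher loci. Within number 1, 721 loci were 2-fold to 4-fold lower, 161 were 4-fold to 8-fold lower, 47 were 8-fold to 16-fold lower and 35 were lower still. Of the 330 higher loci, 329 were under 4-fold and 1 was between 8-fold and 16-fold. That locus, on chromosome 19 with a coding length of 561 bases, had 10.8 CPM in OE NaCl 1, 4.28 CPM in WT NaCl 1 and 0 counts in the other 6 libraries.

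Higher loci of number 1 had a median of 9.49 CPM in OE mock 1 and 22.0 CPM in OE NaCl 1, the values that chose them, against 23.3 and 22.2 CPM for all loci of that pair. OE mock 2 and OE NaCl 2 had medians of 12.3 and 12.7 CPM at these loci, and the WT libraries 4.72 to 5.18 CPM. OE NaCl 1, whose high value is part of the choice, was above all WT libraries at 288 of the 330 (87.3%, against 38.2% of all loci). It was at least 2-fold above OE mock 2 at 177 of them (53.6%, against 11.8%) and at least 2-fold below it at 42 (12.7%, against 11.96%). At the remaining loci OE NaCl 1 and OE mock 2 lay within 2-fold of each other.

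Glyma.10G251500 on chromosome 10, a locus of 1 model with a coding length of 1056 bases, had the largest difference within number 1. Its level was 1577 CPM in OE mock 1, 474 CPM in OE mock 2, 4.22 CPM in OE NaCl 1 and 424 CPM in OE NaCl 2. OE NaCl 1 was thus 374-fold lower than OE mock 1 (exact 95% counting interval 261 to 553), while OE NaCl 2 was 1.12-fold lower than OE mock 2 (1.06 to 1.18).

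The WT libraries lay at 200 to 220 CPM for Glyma.10G251500, so OE NaCl 1 was below and the other 3 OE libraries were above every WT library. Mock and NaCl levels averaged 1025 ± 780 and 214 ± 297 CPM (SD, n = 2 each), and the OE groups did not overlap. edgeR estimated a log2 fold change of -2.26 ± 1.88 (SE) at an adjusted p of 0.99999. Over 17 alternative fits it ranged from -7.92 to -1.11. The -7.92 came from the fit of the 7 libraries other than OE NaCl 2, where OE NaCl 1 is alone in its group. In no other alternative was the adjusted p under 0.05.

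Glyma.20G142000 on chromosome 20, also of 1 model and a coding length of 1056 bases, came second. It was at 1045 and 609 CPM in OE mock 1 and 2, 13.1 CPM in OE NaCl 1 and 511 CPM in OE NaCl 2. The WT libraries gave 273 to 279 CPM, so here too OE NaCl 1 lay below and the other 3 OE libraries above every WT library. Within number 1 its NaCl level was 79.5-fold lower (64.9 to 98.8), and within number 2 it was 1.19-fold lower (1.14 to 1.25).

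Averages of Glyma.20G142000 were 827 ± 308 CPM in mock and 262 ± 352 CPM in NaCl (SD, n = 2 each). The groups did not overlap, and edgeR estimated -1.65 ± 1.52 (SE) on the log2 scale at an adjusted p of 0.99999. This estimate ranged from -5.98 to -0.69 over the alternatives. The -5.98 again came from the fit of the 7 libraries other than OE NaCl 2, and in no other alternative was the adjusted p under 0.05. Both loci carry fractional counts, so reads were shared with other gene models and the levels are uncertain to that extent. Such counts are common, as only 8.4% of all loci measured in number 1 had whole counts in every library. Per length, the authors' FPKM in OE mock 1 was 1533 for Glyma.10G251500 and 1016 for Glyma.20G142000.

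Among the 20 loci with the largest negative differences within number 1, the smallest was -4.66. The median of these 20 loci was 76.6 CPM in OE mock 1 (24.3 to 1577), 1.27 CPM in OE NaCl 1 (0 to 17.3), 60.3 CPM in OE mock 2 (3.74 to 3130) and 57.7 CPM in OE NaCl 2 (4.82 to 3050). Both libraries numbered 2 were above all WT libraries at 19 of the 20, against 38.0% of all loci measured in number 1. OE NaCl 1 was below all WT libraries at 19, against 43.7%. Both counts are descriptions, since the levels of OE mock 1 and OE NaCl 1 ranked these loci. No difference within number 2 exceeded 0.48 in size on the log2 scale.

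These 20 loci included 4 pairs that share a coding length and lie on different chromosomes. How often other loci share a coding length was not counted here. All members of these pairs carry fractional counts, so reads may be shared between loci. The pairs were on chromosomes 10 and 20 (1056 bases), 16 and 19 (414 bases), 2 and 14 (786 bases) and 9 and 15 (519 bases). The soybean genome retains many duplicated genes from ancient whole-genome duplications, but whether these loci are such copies was not tested. The locus on chromosome 16 had 901, 1201, 17.3 and 1082 CPM and that on chromosome 19 had 355, 279, 5.03 and 277 CPM in OE mock 1, OE mock 2, OE NaCl 1 and OE NaCl 2. OE NaCl 1 was the lowest OE library at both loci, which follows in part from the choice by its low value.

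Another locus in this set, on chromosome 9 with a coding length of 762 bases, differed more between numbers than between treatments. It stood at 59.3 CPM in OE mock 1 and 1.27 CPM in OE NaCl 1, but at 3130 and 3050 CPM in OE mock 2 and OE NaCl 2. The WT libraries had 355 to 372 CPM, between the OE libraries of the 2 numbers. Over both numbers edgeR estimated -0.03 ± 2.81 (SE) on the log2 scale at an adjusted p of 0.99999.

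**Figure D4:**
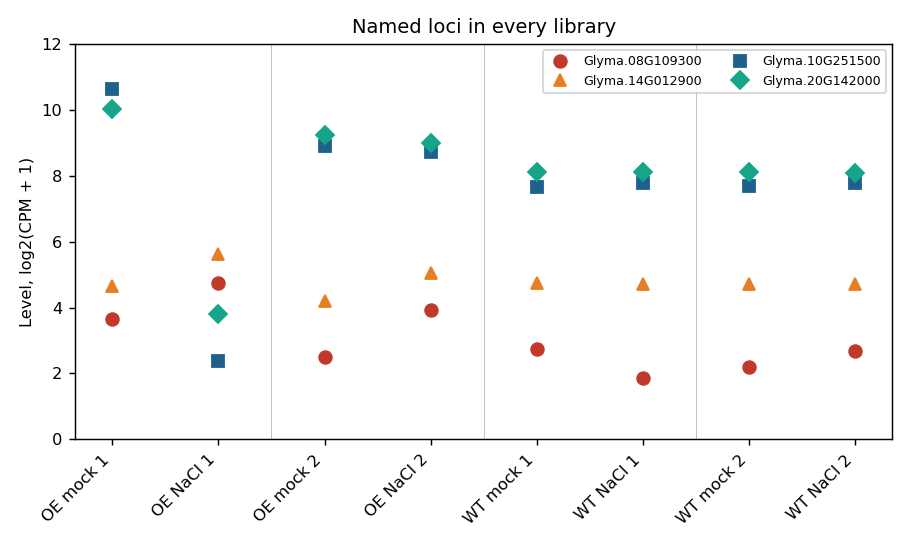
Points give log2(CPM + 1) of the 4 loci named by ID in each of the 8 libraries, ordered by genotype, number and treatment. Glyma.10G251500 and Glyma.20G142000 are low in OE NaCl 1 alone, at 4.22 and 13.1 CPM, whereas Glyma.08G109300 and Glyma.14G012900 are higher in NaCl within both OE pairs and at or below 26.0 CPM in all WT libraries.

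Few loci differed in the same direction within both numbers. Of 16973 loci at 10 CPM or more in both pairs, 18 were at least 1.5-fold higher in NaCl within each number (0.106%) and 5 were at least 1.5-fold lower (0.0295%). In opposite directions there were 18 loci that were higher within number 1 and lower within number 2, and 22 with the reverse order. The counts moved with scaling: library totals gave 34 higher and 1 lower, with 9 and 31 opposite, and RLE scaling gave 24 and 4, with 22 and 20 opposite.

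The 18 loci that were higher within both numbers had a median coding length of 2214 bases, against 1347 bases for all loci of both pairs. Their median levels were 13.1 and 7.25 CPM in OE mock 1 and 2, 24.5 and 14.4 CPM in OE NaCl 1 and 2, and 12.2 to 12.8 CPM in the WT libraries. All loci of both pairs had medians of 24.8 to 28.0 CPM in the OE libraries. For number 1 the mock median of the 18 loci was the nearer to WT, and for number 2 the NaCl median was.

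Glyma.08G109300 on chromosome 8, a locus of 1 model with a coding length of 1167 bases, was the only one of these 16973 loci past 2-fold in both pairs. It had 11.7 and 4.65 CPM in OE mock 1 and 2 and 25.7 and 14.3 CPM in OE NaCl 1 and 2. The NaCl level was 2.21-fold higher within number 1 (exact 95% counting interval 1.68 to 2.89) and 3.07-fold higher within number 2 (2.01 to 4.88). WT levels were 5.74 and 3.54 CPM in mock and 2.62 and 5.43 CPM in NaCl, with no common direction.

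The groups of Glyma.08G109300 averaged 8.15 ± 4.95 CPM in mock and 20.0 ± 8.06 CPM in NaCl (SD, n = 2 each) and did not overlap in OE. edgeR estimated 1.35 ± 0.61 (SE) on the log2 scale at an adjusted p of 0.99999, and 0.75 to 2.19 (adjusted p 0.221 to 1) over 17 alternatives. Its counts are fractional, and 2 further loci on chromosome 8 have the same coding length and equal values in every library. Those 2 loci were each at 3.71 and 13.1 CPM in OE mock 1 and OE NaCl 1, a log2 difference of 1.58. In OE mock 2 and OE NaCl 2 each was at 4.239 and 1.496 CPM, a log2 difference of -1.07. Within number 2 they thus went in the direction opposite to that of Glyma.08G109300. Reads shared among these 3 loci would move their levels. How far the 3.07-fold difference within number 2 depends on the division of such reads was not tested, and its counting interval does not cover it.

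Glyma.14G012900 on chromosome 14, with 3 models and a longest coding length of 2187 bases, followed. It was at 24.2 and 17.2 CPM in OE mock 1 and 2 and at 48.0 and 32.4 CPM in OE NaCl 1 and 2. All WT libraries lay between 25.2 and 26.0 CPM, between the mock and NaCl levels of number 2 and just above OE mock 1. Its NaCl level was 1.99-fold higher within number 1 (1.64 to 2.41) and 1.88-fold higher within number 2 (1.48 to 2.40).

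Mock and NaCl levels of Glyma.14G012900 averaged 20.7 ± 4.88 and 40.2 ± 11.0 CPM (SD, n = 2 each). edgeR estimated 1.02 ± 0.39 (SE) on the log2 scale, with an unadjusted p of 0.0491 and an adjusted p of 0.99999, and 0.64 to 1.30 (adjusted p 0.0909 to 1) over 17 alternatives. The interaction with genotype was 0.98 on the log2 scale (edgeR adjusted p = 0.99997). Its counts were whole in all 8 libraries within a tolerance of 0.01. Per length the authors' FPKM in OE NaCl 1 was 23.6, close to the 23.1 of Glyma.08G109300.

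The next loci in this order lay on chromosomes 14, 12, 5, 18, 15 and 11. The first of these, a locus of 1644 bases on chromosome 14, had 14.5 and 7.61 CPM in mock and 31.1 and 14.4 CPM in NaCl. OE NaCl 2 was thus just below OE mock 1, and the treatment groups overlapped. A locus of 2241 bases on chromosome 12 likewise had 26.8 and 11.5 CPM in mock and 52.8 and 19.6 CPM in NaCl, with OE NaCl 2 again below OE mock 1. A locus of 408 bases on chromosome 5 had 6.53 and 5.04 CPM in mock and 11.2 and 11.0 CPM in NaCl, where the numbers lay close together (edgeR unadjusted p = 0.0461, adjusted p = 0.99999).

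Loci lower within both numbers numbered 5. The first, on chromosome 10 with a coding length of 1104 bases, had 11.7 and 10.6 CPM in mock and 6.25 and 5.36 CPM in NaCl. For it edgeR estimated -0.89 ± 0.36 (SE) on the log2 scale at an adjusted p of 0.99999, and its WT levels were 9.67 to 11.8 CPM. The other 4 lay on chromosomes 17, 3, 15 and 11, with coding lengths of 705, 381, 765 and 2946 bases. Their edgeR estimates were -0.87, -0.74, -0.59 and -0.66 on the log2 scale, each at an adjusted p of 0.99999.

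The lowest unadjusted p-values of the OE test belonged to rare transcripts. The first was a locus on chromosome 13 with a coding length of 2451 bases and 0 counts in both OE mock libraries, 3.70 CPM in OE NaCl 1 and 3.01 CPM in OE NaCl 2 (edgeR unadjusted p = 0.0044, adjusted p = 0.99999). It also had 0 counts in 3 WT libraries and 0.468 CPM in WT NaCl 1. The next, likewise on chromosome 13 and 204 bases long, had 1.52 and 3.71 CPM in OE mock and 0 counts in OE NaCl, with 1.23 to 1.57 CPM in WT (edgeR unadjusted p = 0.0117, adjusted p = 0.99999). Both carry fractional counts, and at a few counts per library such levels are imprecise.

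A locus of 2178 bases on chromosome 10 had 3.11 and 2.76 CPM in OE mock against 0.591 and 0.516 CPM in OE NaCl (edgeR unadjusted p = 0.0182, adjusted p = 0.99999). The 4 WT libraries had 5.33 to 8.20 CPM, above every OE library. A locus of 1083 bases on chromosome 6 had 0.181 and 0.216 CPM in OE mock and 1.63 and 1.83 CPM in OE NaCl (edgeR unadjusted p = 0.0137, adjusted p = 0.99999), with WT between 0.437 and 1.20 CPM. At these loci libraries of equal treatment lay close together and the treatment groups did not overlap, yet none passed adjustment over all loci.

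Within number 2 the 25 higher loci had a median coding length of 1881 bases, against 1314 bases for all loci of that pair, and medians of 5.14 CPM in OE mock 2 and 13.3 CPM in OE NaCl 2. In OE mock 1 and OE NaCl 1 the same loci had medians of 8.98 and 10.5 CPM, a median difference of -0.01 on the log2 scale. The 5 lower loci had a median coding length of 1275 bases. The values of number 2 chose these loci. Within number 1 the median log2 difference of the 5 lower loci was 0.24, opposite in sign to their -1.07 within number 2.

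Among these 25, a locus on chromosome 16 with a coding length of 13179 bases had 17.4 CPM in OE mock 2 and 58.1 CPM in OE NaCl 2, but 29.0 and 24.4 CPM in OE mock 1 and OE NaCl 1. One on chromosome 12 of 1881 bases had 24.1 and 69.1 CPM within number 2 and 24.7 and 22.3 CPM within number 1. For both loci OE NaCl 2 stood alone above the other 7 libraries, the WT libraries having 11.1 to 16.2 CPM and 7.52 to 12.2 CPM.

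The largest negative difference within number 2 was at a locus on chromosome 5 with a coding length of 2637 bases. It had 13.7 CPM in OE mock 2 and 2.74 CPM in OE NaCl 2, against 17.4 and 20.8 CPM in OE mock 1 and OE NaCl 1. WT libraries had 23.9 to 41.4 CPM, so every OE library was below every WT library and OE NaCl 2 was the lowest.

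Abundance and coding length related differently to the NaCl to mock difference in the 2 numbers. With the loci at a mean of 10 CPM or more divided into 5 classes of equal size by mean OE level, the SD of the difference within number 2 went from 0.29 in the lowest class to 0.16 in the highest. Both WT pairs had the same order, from 0.27 to 0.15 and from 0.25 to 0.13. Within number 1 the SD was 0.56 in the lowest class and 0.74 in the highest. The share of loci at least 2-fold lower in OE NaCl 1 was 3.20% in the lowest class and 8.46% in the highest.

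By coding length, the median difference within number 2 went from -0.13 in the shortest class (105 to 762 bases) to 0.06 in the longest (from 2169 bases). Both WT pairs had the same order, from -0.04 to 0.08 and from -0.04 to 0.04. Within number 1 the order was the opposite, from -0.01 to -0.07. The share of loci at least 2-fold lower within number 1 was 7.26% in the shortest class and 2.83% in the longest. These are descriptions across loci, which are not independent replicates, and fragmentation of the RNA was not analysed here.

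**Figure D5:**
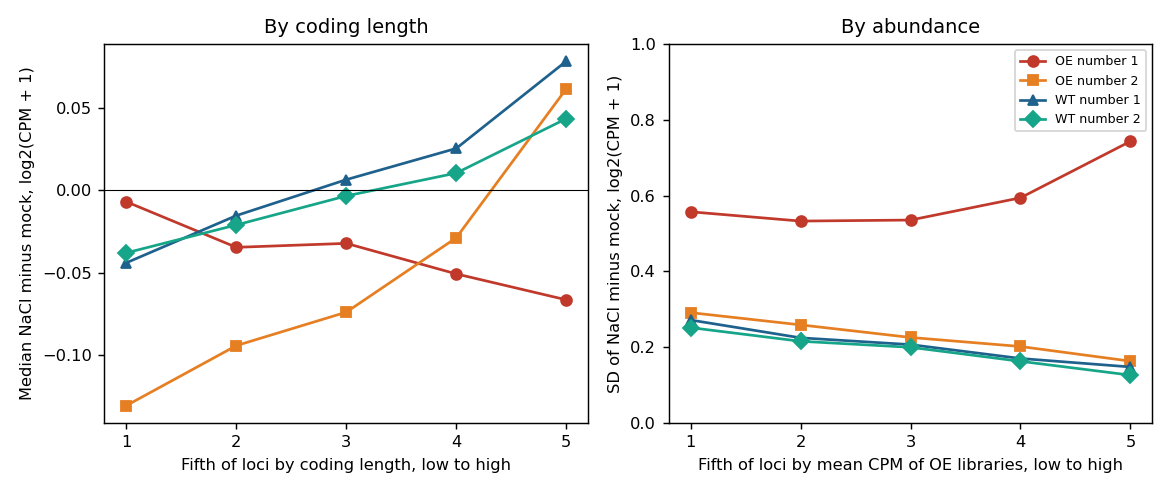
Left: median NaCl minus mock difference in log2(CPM + 1) for 5 classes of loci by longest coding length. Right: SD of the difference for 5 classes by mean CPM in the OE libraries. Lines join the values of each OE and WT pair of equal number, and on the right OE number 1 has an SD of 0.53 to 0.74 against at most 0.29 in the other 3 pairs.

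The loci lower in NaCl within number 1 were found on all 20 chromosomes. Their share ranged from 3.44% of measured loci on chromosome 3 to 6.80% on chromosome 11. A measured neighbour that was also 2-fold lower was found for 134 of the 964 loci (13.9%), against 9.47% of the other loci, and the longest run held 5 loci on chromosome 7. Of 144 such loci with more than 1 model at 10 CPM, every measured model was at least 2-fold lower at 115 (79.9%) and lower at 138 (95.8%). The sum over models chose these loci, so lower models follow in part from the choice, and no share for other loci is given here.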

How the data were processed

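Processed files of 8 libraries were used. The authors deposited an expected count per gene model, made with RSEM per the submitters' processing notes, with an FPKM value and a length per the file headers. The sources used here do not give aligner, build, annotation or strandedness. Values were added up by locus, over its models, and counts rounded for tests; an unlisted model was set to 0. Every length was a multiple of 3, so lengths are coding lengths. FPKM summed over models served only to compare levels between loci.

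The OE test used R 4.3.3 with edgeR 4.0.16 (filterByExpr, TMM, glmQLFit, glmQLFTest) on the 4 OE libraries with 2 residual degrees of freedom, and Benjamini-Hochberg adjustment at 0.05. WT libraries were left out because OE and WT vary unequally. The interaction used all 8. DESeq2 1.42.0 and limma 3.58.1 (voom) were alternatives. Standard errors came from the quasi-likelihood F. CPM used TMM factors over all 8 libraries. Within-number differences used log2(CPM + 1) and at least 10 CPM in the higher library. Scripts were tested on simulated data.

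Replicates are separate samples by label only, so p-values measure the spread between these libraries. An exact permutation test of 2 against 2 libraries cannot go below p = 0.333. Libraries were grouped by label, but the comparison and the lists to describe were chosen with earlier results of these data known. The planned gene lists and organ markers were not analysed here, since 0 of the locus IDs occur in the reference gene table (Glycine_max_v4.0). The loci named by ID are the 2 with the largest smaller-of-the-pair increase and the 2 with the largest decrease within number 1. The others were described by rank within the rule.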

Additional observations from a re-analysis of the deposited data

Results flagged for a closer look

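Glyma.10G251500 was lower in NaCl within both OE pairs and higher within both WT pairs. The mean log2(CPM + 1) difference between NaCl and mock was -4.20 in OE and 0.11 in WT, which differ by -4.31. Its OE value rests on OE NaCl 1, the difference being -8.24 within number 1 and -0.16 within number 2. In the edgeR interaction test the locus had an adjusted p of 0.99997.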

How the results depend on the processing

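The OE test passed 0 loci under 17 of 18 alternatives, among them RLE and upper-quartile scaling, both filters, models as units, DESeq2, limma-voom, all 8 libraries and each OE library left out (0 to 0). The fit of all libraries without OE NaCl 2, added later, passed 218 (0.62% of 35161), where OE NaCl 1 is alone in its group and takes its spread from the others. The interaction also passed 0 under 17 of 18, and 0 to 57 with a library left out, the 57 being without OE NaCl 2. Equal numbers deviated together across treatments in OE (r = 0.779 over 21355 loci) and hardly in WT (r = 0.0185), but the labels tie a number to no plant, batch or day and OE has only 2 pairs. With a replicate block the OE test passed 0 loci, with 1097 of 32629 at an unadjusted p under 0.05, and the interaction 0. With all 8 libraries and a block within OE, the OE test in edgeR had 3931 of 34023 loci at an unadjusted p under 0.05. The planned gene-list medians were not run, because locus IDs have no gene names.

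Counts within numbers moved with the cut-offs, given as number 1 higher and lower, then number 2 higher and lower. A threshold of 1.5-fold gave 1997, 2472, 261 and 167, one of 3-fold 3, 382, 3 and 2, and gene models as units 813, 1615, 551 and 470. With crossed numbers they were 2272, 3306, 1966 and 1240. Number 1 higher was 84 with a pseudocount of 5 CPM, 506 with a minimum of 5 CPM and 178 with one of 20 CPM, where number 1 lower kept within 1.5 times of 964. Under these 3 settings number 2 higher was 6, 67 and 5 and number 2 lower 2, 23 and 0; with library totals the latter was 2. Loci past 1.5-fold in both numbers were 5, 47 and 3 higher and 1, 22 and 1 lower under the same 3, 34 and 1 with library totals, and 120 and 125 as gene models. The cause of these moves was not tested. Counting error is largest at low levels, where 3 counts are 0.423 to 0.488 CPM in OE. Directions of the 4 named loci were kept in all 17 alternative fits of each.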
